A study of Mus musculus with 18 samples.

Results

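The valine tRNA sites are the positions of cytosolic valine tRNA genes at which 5-methylcytosine (m5C) was listed in small RNA of mouse testis. They were taken as every row of the small RNA table whose name begins with tRNA-Val-, which gave 12 of 192 sites, in 6 of 128 RNAs. The anticodon AAC had 3 sites in 1 gene, CAC had 4 sites in 2 genes and TAC had 5 sites in 3 genes. RefSeq names 22 valine tRNA genes in the mouse (GRCm38.p6), 8 AAC, 11 CAC and 3 TAC. Beside these, the genes with a listed site number 1 AAC, 2 CAC and 3 TAC. Only the counts were compared, and the listed genes were not matched to the RefSeq ones.

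Small RNA came from testes of adult Nsun7 knockout mice (3 libraries) and adult wild-type (WT) mice (3 libraries). The labels give neither the strain nor the allele, nor whether each library is a separate animal, so p-values reflect only how these libraries vary, and that spread may be technical. Ultrafast bisulfite treatment turns unmethylated cytosine into uracil, and the share of reads that still show C at a position is its m5C level. Unmethylated cytosine that escaped conversion would count as m5C too. The small RNA table holds no row for Nsun7, so the knockout could not be checked in it, and the tissue was not checked against marker genes.

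Valine tRNAs decode the GUN codons, and the AAC, CAC and TAC genes differ in the base that faces the last codon position. In mammalian tRNA, NSUN2 methylates cytosines where the variable loop meets the T arm. DNMT2 (TRDMT1) methylates a cytosine in the anticodon loop of a few tRNAs, Asp-GTC, Gly-GCC and Val-AAC. Both marks are known to protect tRNA from cleavage into fragments. NSUN7 belongs to the same protein family as NSUN2, and the series title calls it inactive as an RNA m5C enzyme.

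Over all listed small RNA sites, knockout libraries had 4674568 to 5096438 covering reads in sum and WT libraries 4674265 to 5037935. Valine sites took 0.398%, 0.369% and 0.314% of it in knockout libraries, against 0.477%, 0.364% and 0.335% in WT libraries. Nearly all of that was tRNA-Val-TAC-1-3, with 14074 to 19015 reads over its sites in knockout libraries and 14634 to 22251 in WT libraries. The other 5 genes together had 864 to 1260 reads in knockout libraries and 1023 to 1799 in WT libraries. At 11 of the 12 sites every library had at least 10 reads, and at 4 sites at least 100.

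In these gene names the number after the anticodon marks a mature sequence and the last number a gene copy that encodes it. The 3 TAC genes are therefore copies of the same mature tRNA, and so are the 2 CAC genes. Reads of a mature tRNA cannot be told apart between such copies, and the sources used here do not give how reads that match several copies were placed. The values by copy carry that uncertainty.

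Across the family, levels ran from a small share of the reads to nearly all of them. The lowest was the upstream site of tRNA-Val-CAC-2-1, at 24.2% averaged over the 6 libraries, and the highest the upstream site of tRNA-Val-TAC-1-3, at 97.3%. Upstream and downstream here follow rising coordinates in GRCm39. The table gives every site a plus sign, and whether that is the strand of each tRNA gene was not checked, so for some genes the order along the tRNA may be the reverse.

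**Figure D1:**
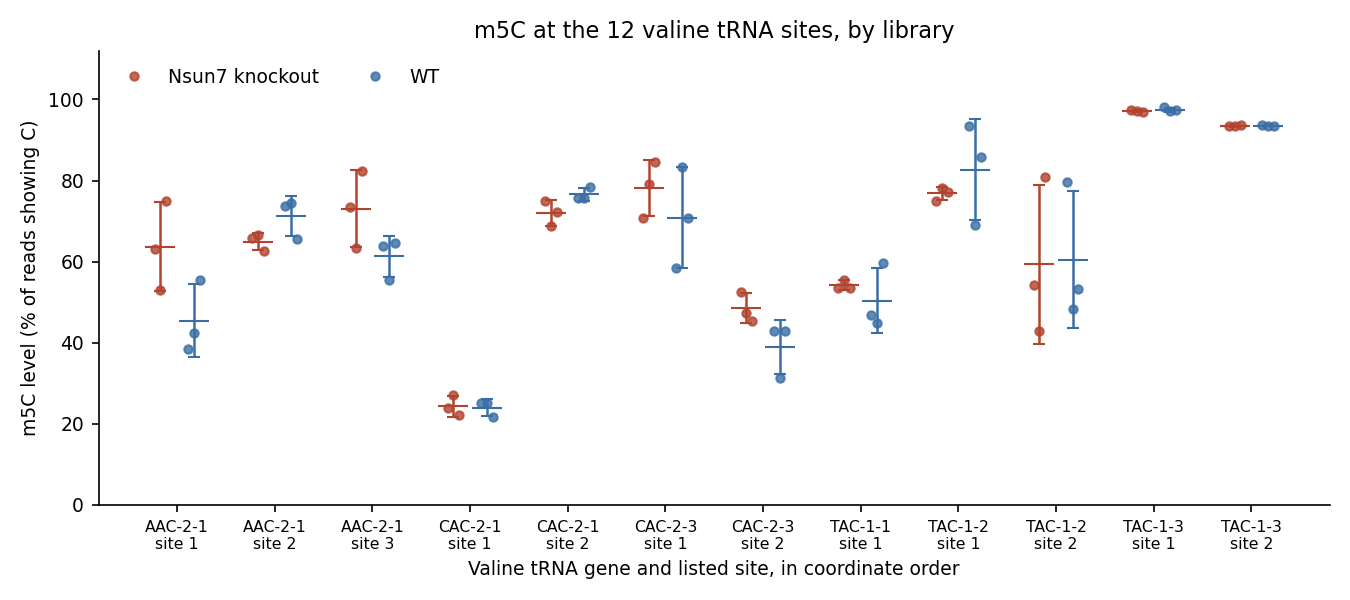
m5C level (percentage of reads showing C, vertical axis) at each of the 12 valine tRNA sites (horizontal axis, by gene and in coordinate order). Points are libraries, with knockout left of WT, and bars give the mean and SD (n = 3 each). Levels lie between 21.6% at CAC-2-1 and 98.0% at TAC-1-3. The genotypes stand close together at the deep TAC-1-3 sites and the upstream CAC-2-1 site, while at the downstream CAC-2-1 site knockout lies below WT.

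The TAC tRNA showed the widest spread between gene copies. tRNA-Val-TAC-1-3 on chromosome X was almost fully methylated at 2 neighbouring bases. Its upstream site (position 159549153, 7205 to 11421 reads) stood at 97.4%, 97.1% and 97.0% in knockout libraries, against 98.0%, 97.1% and 97.3% in WT libraries. Its downstream site (159549154, 6869 to 10830 reads) stood at 93.4%, 93.4% and 93.8% in knockout libraries, against 93.6%, 93.5% and 93.4% in WT libraries. The genotypes overlapped at both sites, and no library departed from the others by much more than a percentage point.

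The other 2 TAC copies, on chromosome 19, had far fewer reads. tRNA-Val-TAC-1-1 had a single site (position 11989342, 73 to 169 reads), at 53.5%, 55.6% and 53.4% in knockout libraries, against 46.7%, 44.9% and 59.6% in WT libraries. WT replicate 3 was the highest of all 6 there and the other WT libraries the lowest. The upstream site of tRNA-Val-TAC-1-2 (position 11989677, 14 to 75 reads) stood at 75.0%, 78.3% and 77.3% in knockout libraries, against 93.3%, 69.0% and 85.7% in WT libraries. The knockout values fell inside the WT range.

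The downstream base of tRNA-Val-TAC-1-2 (position 11989678, 15 to 74 reads) was the most variable valine site. It stood at 54.2%, 42.9% and 81.0% in knockout libraries, against 79.7%, 48.3% and 53.3% in WT libraries, so 1 library of each genotype stood well above the others. Taking the highest site of each copy, the TAC copies spanned 45.0 points, 52.3% to 97.3%, and the copy with most reads had the highest level. At the first listed site of each copy, which need not be the same tRNA position, the ranges over the 6 libraries did not overlap between any of the 3 copies. Of the 11 other mature tRNAs with sites in several gene copies, 8 also had the highest level at the copy with most reads, and their copies spanned 3.87 to 75.9 points (median 27.5). Whether the placement of reads had a part in these differences was not tested.

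**Figure D2:**
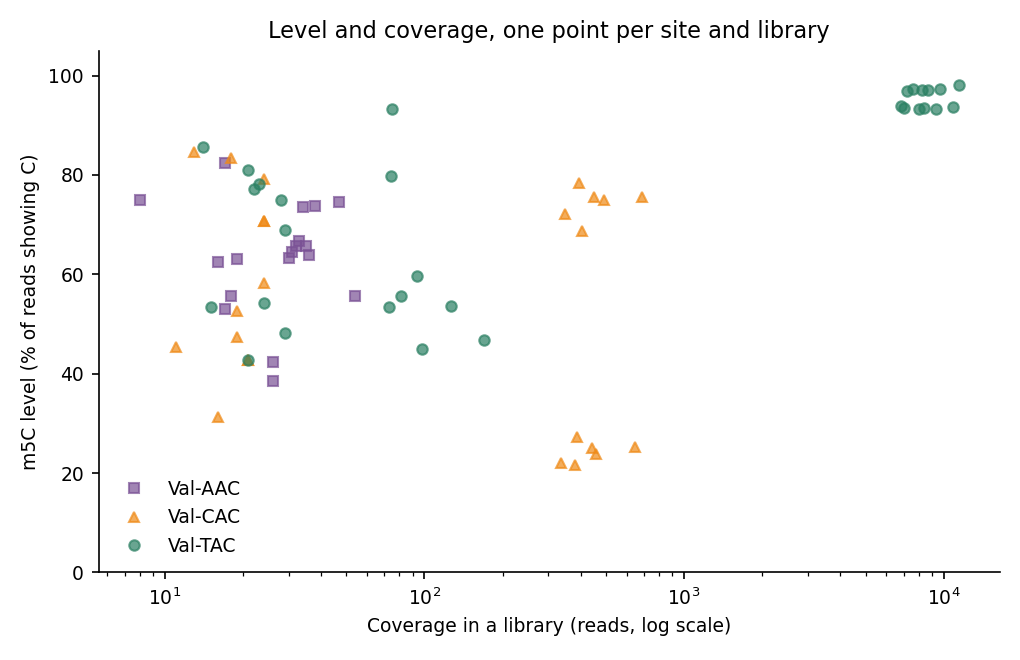
m5C level (percentage of reads showing C, vertical axis) against coverage (reads, log scale, horizontal axis), with a point for each valine site and library, by anticodon. TAC points above 90% lie at 6869 to 11421 reads except for 1 TAC-1-2 value of 93.3%, while AAC points lie at 8 to 54 reads and are spread from 38.5% to 82.4%.

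The CAC tRNA carried the lowest valine level and a steep step between positions. The upstream site of tRNA-Val-CAC-2-1 (chromosome 1, position 170939049, 335 to 646 reads) stood at 23.8%, 27.2% and 22.1% in knockout libraries, against 25.2%, 25.1% and 21.6% in WT libraries. With such coverage the exact 95% binomial interval of a library spans only several points, 19.97% to 28.0% for knockout replicate 1 and 21.9% to 28.8% for WT replicate 1. Such intervals cover counting error alone, because without molecular identifiers several reads may stem from the same molecule. The genotypes overlapped at this site.

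At the downstream site of tRNA-Val-CAC-2-1, 10 bases away (position 170939059, 348 to 690 reads), levels were much higher. They were 75.0%, 68.7% and 72.1% in knockout libraries, against 75.7%, 75.6% and 78.4% in WT libraries. All knockout libraries stood below all WT libraries, with 0.610 points between the nearest.

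tRNA-Val-CAC-2-3 (chromosome 11) had sites at 2 neighbouring bases with few reads. The upstream base (position 48709416, 13 to 24 reads) stood at 70.8%, 79.2% and 84.6% in knockout libraries, against 58.3%, 83.3% and 70.8% in WT libraries. The downstream base (position 48709417, 11 to 21 reads) stood at 52.6%, 47.4% and 45.5% in knockout libraries, against 42.9%, 31.3% and 42.9% in WT libraries. The genotypes overlapped at the upstream base, while at the downstream base each knockout library was above each WT library, by 2.60 points at the nearest. The highest site of each CAC copy averaged 74.5% in CAC-2-3 (its upstream base) and 74.3% in CAC-2-1 (its downstream site). These need not be the same tRNA position, and the CAC-2-3 value rests on few reads.

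The AAC tRNA, the valine tRNA known as a DNMT2 substrate, had the fewest reads for its sites. All of them lay in tRNA-Val-AAC-2-1 on chromosome 13. The first (position 23469608) stood at 63.2%, 52.9% and 75.0% in knockout libraries, over 19, 17 and 8 reads. In WT libraries it stood at 38.5%, 42.3% and 55.6%, over 26, 26 and 18 reads. Knockout replicate 2 lay below WT replicate 3, so the genotypes overlapped. The exact binomial intervals were wide, 34.9% to 96.8% for knockout replicate 3 and 20.2% to 59.4% for WT replicate 1.

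The other AAC sites are neighbouring bases 10 and 11 positions downstream. Position 23469618 (16 to 47 reads) stood at 65.7%, 66.7% and 62.5% in knockout libraries, against 73.7%, 74.5% and 65.6% in WT libraries. Position 23469619 (17 to 54 reads) stood at 73.5%, 63.3% and 82.4% in knockout libraries, against 63.9%, 55.6% and 64.5% in WT libraries. WT replicates 1 and 2 were highest at position 23469618 and knockout replicates 1 and 3 at position 23469619, and the genotypes overlapped at both.

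Averaged over their sites, the anticodons ranked TAC, AAC and CAC in every library. The TAC sites averaged 76.2% ± 3.76 in knockout libraries and 76.9% ± 5.92 in WT libraries, with SD over n = 3 each. The AAC sites averaged 67.2% ± 6.16 in knockout and 59.3% ± 2.30 in WT libraries, and the CAC sites 55.8% ± 0.279 in knockout and 52.6% ± 1.80 in WT libraries. Within a library AAC stood above CAC by 11.9, 5.37 and 17.2 points in knockout libraries, and by 8.16, 3.63 and 8.47 points in WT libraries. TAC stood above CAC by 16.7 to 31.8 points and above AAC by 7.20 to 23.6 points over the 6 libraries. The ranking leans on few sites. The CAC average includes the upstream CAC-2-1 site at 24.2%, while the other CAC sites averaged 43.7% to 74.5% and the AAC sites 54.6% to 68.1%. The TAC average includes the TAC-1-3 sites at 97.3% and 93.5%, against 52.3% to 79.8% at the other TAC sites. The anticodons hold unlike sets of positions and unlike depths, and no test was made of these averages.

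Within genes the level changed sharply with position. Consecutive listed sites of a tRNA were compared within each library by limma, whose model averages the genotypes. Over all 59 such pairs, 83.1% differed at a Benjamini-Hochberg adjusted p under 0.05, and 5 of the 6 valine pairs did, a share near that background. The largest valine step was in tRNA-Val-CAC-2-1, where the downstream site stood higher by 51.2, 41.5 and 50.04 points in knockout libraries, and by 50.4, 50.6 and 56.8 points in WT libraries. The mean step was 50.1 ± 1.69 points (SE), with a limma adjusted p of 2.8e-06, and it was upward in 6 of 6 libraries.

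The step over the same 10 bases in tRNA-Val-AAC-2-1 was also upward but smaller and less certain. Site 2 stood above site 1 by 2.56 and 13.7 points in knockout replicates 1 and 2, and by 35.2, 32.2 and 10.1 points in WT libraries. Knockout replicate 3, with 8 reads at the first site, was left out by the minimum of 10 reads. The mean step was 17.0 ± 4.77 points (SE), with a limma adjusted p of 0.0294. The call was lost without WT replicate 1 (14.6 points, adjusted p = 0.0793 by limma) or WT replicate 2 (15.4 points, 0.0871), and with the replicate number as a block (13.0 points, 0.0508), where the alternatives ranged from 0.00529 to 0.0871. Without knockout replicate 1 or 2 the step could not be fitted, as the minimum of 2 libraries per genotype was not met. The exact sign-flip test could not pass with 5 libraries, whose smallest possible p is 0.0625.

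Between neighbouring bases the downstream one was lower in the 3 valine pairs that passed. In tRNA-Val-CAC-2-3 the mean step was -30.8 ± 5.51 points (SE, downward in 6 of 6 libraries, limma adjusted p = 0.0038). In tRNA-Val-TAC-1-3 it was only -3.80 ± 0.370 points, again downward in 6 of 6 libraries, with a limma adjusted p of 0.000306. In tRNA-Val-TAC-1-2 it was -19.9 ± 5.63 points, downward in 5 of 6 libraries, with a limma adjusted p of 0.0232. That last call was lost without knockout replicate 1 (-19.0 points), WT replicate 2 (-20.3) or WT replicate 3 (-17.3). It was also lost with the replicate block (limma adjusted p = 0.0686) and in the exact sign-flip test (0.0753), where the limma and sign-flip adjusted p ranged from 0.0041 to 0.0753 over the alternatives.

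The neighbouring bases of tRNA-Val-AAC-2-1 did not pass, with a mean step of -0.91 ± 3.77 points (SE) and a limma adjusted p of 0.832. Outside valine, 26 of 34 pairs of neighbouring bases passed, 15 with the downstream base lower and 11 with it higher. Over all pairs tested, 47.5% were called with the downstream site lower and 35.6% with it higher. These directions follow coordinates and may be reversed along the tRNA for some genes.

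**Figure D3:**
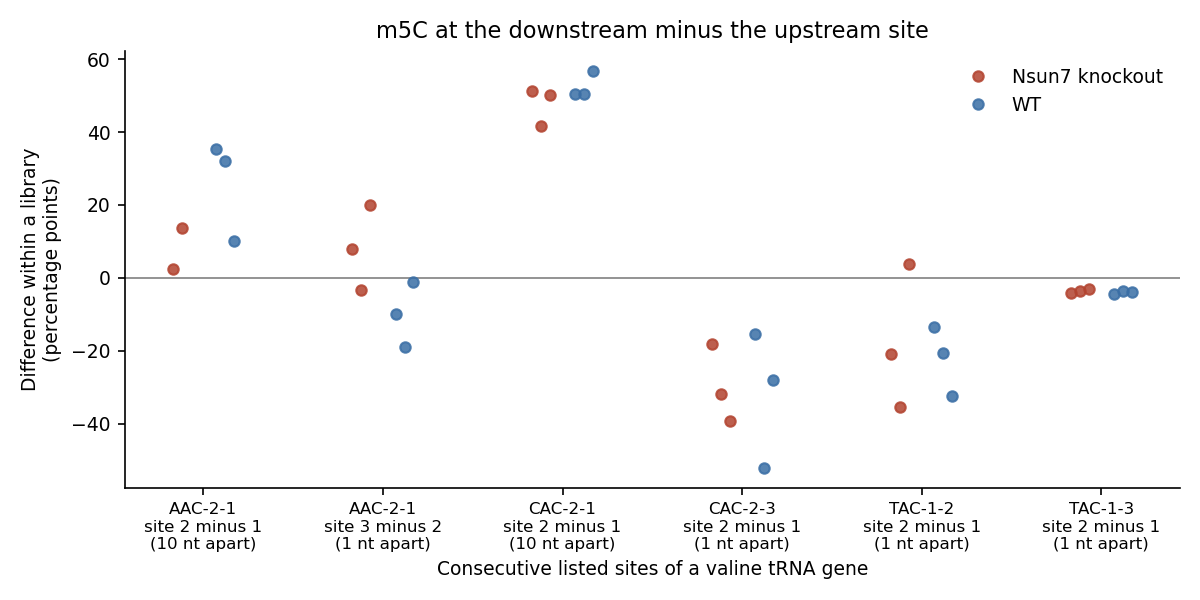
Difference in m5C level between consecutive listed sites of a valine tRNA gene, downstream minus upstream within a library (percentage points, vertical axis), for the 6 pairs (horizontal axis). Points are libraries, knockout left of WT; CAC-2-1 rises by 41.5 to 56.8 points, CAC-2-3 drops by 15.5 points or more in every library, and AAC-2-1 has 5 points at its first pair because knockout replicate 3 had 8 reads there.

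The genotypes did not differ detectably in any of these steps. The genotype term of the same limma model passed for 0 of 6 valine pairs and 0 of all 59 pairs (0%). The widest changes were in tRNA-Val-AAC-2-1. Its first step was 17.7 points smaller in knockout libraries, with a 95% interval of the change from -44.0 to 8.64, and its second was 18.1 points more positive, with an interval from -1.25 to 37.4. Both had a limma adjusted p of 0.788.

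AAC-2-1 and CAC-2-1 are the 2 valine genes with a site 10 bases upstream of another. Of their tRNAs, only Val-AAC was named above as a DNMT2 substrate. Both genes were set beside the Asp-GTC and Gly-GCC genes, the other DNMT2 substrates named. In those genes 8 upstream sites lay 9 bases before the next listed site. Neither the spacing nor the coordinate order fixes the position in the tRNA, so whether these sites lie in the anticodon loop was not tested. In 3 of the 4 Asp-GTC genes the upstream site was nearly fully methylated, at 96.1% to 97.8% in knockout libraries and 96.7% to 97.8% in WT libraries. Gly-GCC genes ranged from 37.9% to 86.3% in knockout libraries and from 28.9% to 86.2% in WT libraries. The AAC-2-1 site averaged 63.7% ± 11.0 in knockout libraries and 45.4% ± 8.97 in WT libraries (SD, n = 3 each), inside the range of Gly-GCC genes.

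The CAC-2-1 site was the lowest of the 10, at 24.4% ± 2.60 in knockout libraries and 24.0% ± 2.06 in WT libraries (SD, n = 3 each). Both valine genes had the higher level at the downstream site. Among the 8 Asp-GTC and Gly-GCC pairs, 6 had the lower level at the downstream site and 2 the higher, all 8 passing by limma, with the spacing unlike that of valine by a base. The 2 with the higher level were the shallowest of the 8. They were Asp-GTC-1-9 (8 to 59 reads at the upstream site, limma adjusted p = 0.0422) and Gly-GCC-2-7 (17 to 32 reads). No test was made between valine and the other genes.

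**Figure D4:**
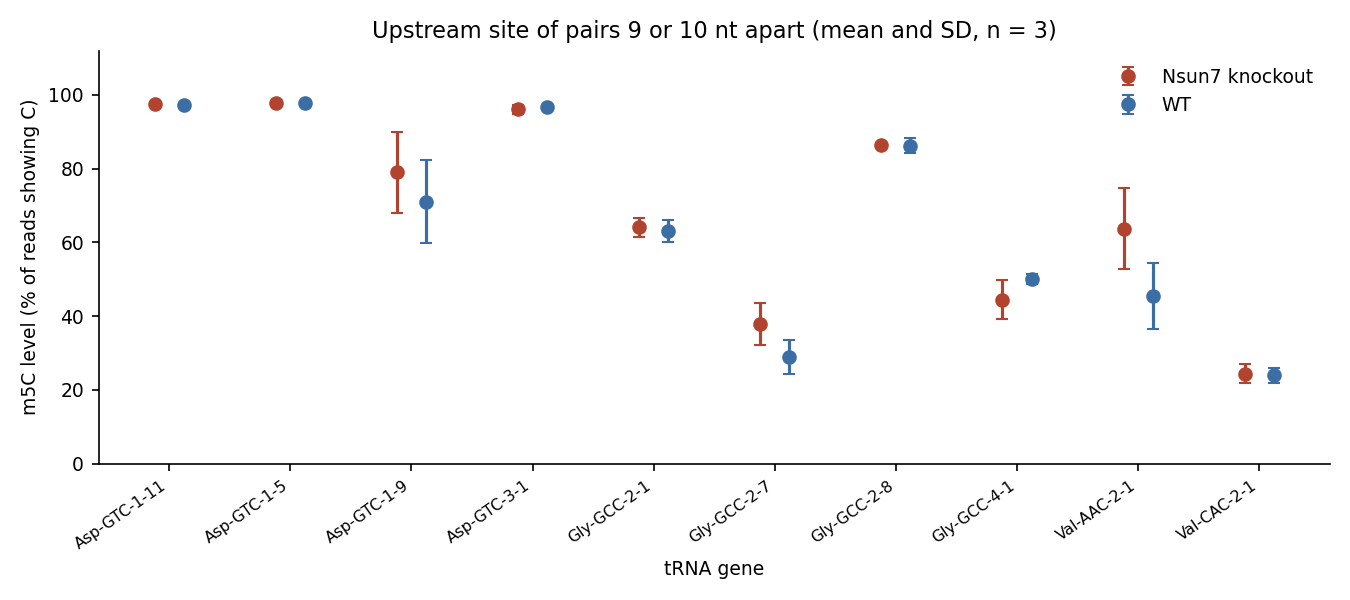
m5C level (percentage of reads showing C, vertical axis) at the upstream site of the 10 pairs of listed sites that lay 9 or 10 nucleotides apart (horizontal axis, tRNA gene). Points and bars are the mean and SD of 3 libraries, knockout left of WT; Val-CAC-2-1 is the lowest at 24.4% and 24.0%, and Val-AAC-2-1 has wide bars at 8 to 26 reads.

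Loss of Nsun7 was not accompanied by a detectable change at any valine site. The difference was positive at 7 sites and negative at 5. A logistic model with quasi-binomial spread, fitted to the C reads at all sites, called 0 of the 12 valine sites and 0% of the 184 sites tested. At an unadjusted p under 0.05 it held 0 valine sites, against 3.8% of all sites. limma on the levels and the quasi-binomial model with moderated dispersions also called 0 valine sites. The lowest Benjamini-Hochberg adjusted p at a valine site was 0.799 in the quasi-binomial model and 0.757 in limma.

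The libraries of the genotypes lay wholly apart at 2 of 12 valine sites, against 11.5% of all 192 sites. These were the downstream sites of tRNA-Val-CAC-2-1, with a knockout minus WT difference of -4.61 points, and of tRNA-Val-CAC-2-3, with one of 9.50 points. Each had p = 0.1 in the two-sided exact permutation test, the smallest that 3 libraries against 3 can give, and a quasi-binomial adjusted p of 0.799. Leaving out knockout replicate 2 brought the CAC-2-1 difference to -3.00 points, and leaving out WT replicate 2 brought that of CAC-2-3 to 5.63.

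The largest difference was at the first site of tRNA-Val-AAC-2-1, 18.3 points higher in knockout libraries over all 6, with 9 pairwise differences between -2.61 and 36.5 points. Without knockout replicate 3, which had 8 reads and was dropped from the quasi-binomial fit, it was 12.6 points, with an adjusted p of 0.877. Coverage of this site was also lower in knockout libraries (8 to 19 reads) than in WT libraries (18 to 26), and the part of depth in the difference was not tested. The knockout minus WT difference was 11.8 points at the third AAC site and -6.30 at the second, with quasi-binomial adjusted p of 0.806 and 0.799. The third-site difference was 7.11 points without knockout replicate 3 and 16.6 points without knockout replicate 2.

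The precision of the genotype comparison varied widely between sites, with both depth and the spread between libraries. At tRNA-Val-TAC-1-3 the 95% limma interval of the knockout minus WT difference ran from -1.43 to 0.74 points at the upstream site and from -0.89 to 0.89 at the downstream site. At the deep CAC-2-1 sites it ran from -4.23 to 5.05 points upstream and from -9.55 to 0.32 downstream. A loss of 50% of the WT level was outside the interval at 11 of the 12 sites, and a complete loss at all 12. The exception was the downstream base of tRNA-Val-TAC-1-2, whose interval ran from -36.7 to 34.5 points. The limma intervals rest on the spread between libraries and give no weight to read number. At sites with few reads, such as the downstream CAC-2-3 base (11 to 21 reads), they may be narrower than counting error allows.

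**Figure D5:**
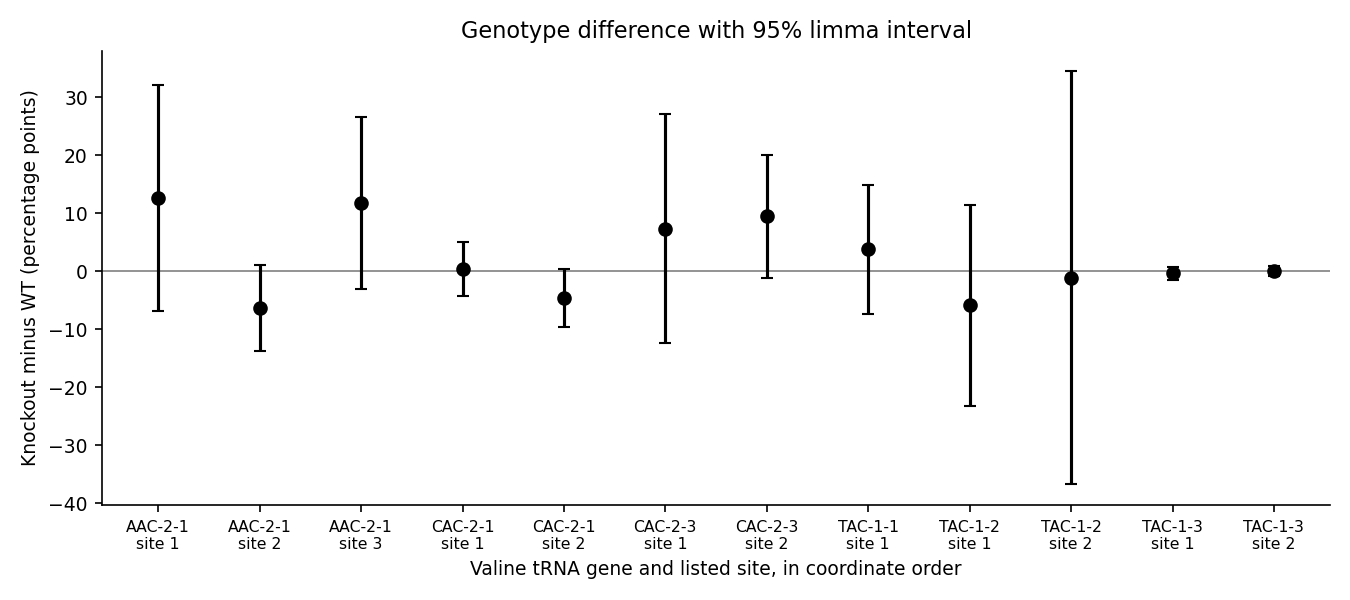
Knockout minus WT difference in m5C level (percentage points, vertical axis) at the 12 valine sites (horizontal axis), with the 95% limma interval as bars. Every interval includes 0; the interval is under 2.5 points wide at both TAC-1-3 sites and runs from -36.7 to 34.5 points at TAC-1-2 site 2. AAC-2-1 site 1 is without knockout replicate 3.

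Averaged over the 12 sites, the valine level was 67.1% ± 3.13 in knockout libraries and 64.4% ± 2.35 in WT libraries (SD, n = 3 each). The mean difference was 2.74 points, with pairwise differences from -1.42 to 8.85, and the median difference over sites was 0.205 points, against 0.00092 over all 192 sites. The 4 sites with at least 100 reads in every library gave the opposite direction, -1.14 points, while pooled reads gave 0.116 points and the median over sites 4.43. The mean difference was 1.04 points without knockout replicate 3, 1.38 without WT replicate 2 and 4.12 without knockout replicate 2. No test was made of this average.

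Valine sites stood below the other cytosolic tRNA sites when sites were weighted equally. The 127 other sites, in 77 genes, averaged 73.9% ± 0.280 in knockout libraries and 73.4% ± 0.934 in WT libraries (SD, n = 3 each). The valine minus other difference was -7.36, -9.79 and -3.06 points in knockout libraries, against -6.68, -12.6 and -7.73 points in WT libraries. With reads pooled, so that TAC-1-3 dominates, the difference over both genotypes was 0.0815 points in place of -7.88. This comparison was not tested.

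The sites most like the deepest valine site, the upstream base of tRNA-Val-TAC-1-3, were sought among 96 sites of other RNAs with at least 100 reads in every library. Likeness was the mean absolute difference in level over the 6 libraries. The closest was position 51301396 of tRNA-Leu-AAG-1-3, at 0.266 points. It averaged 97.3% in knockout and 97.2% in WT libraries. The next were position 48744517 of tRNA-Thr-TGT-3-1 (0.347 points) and position 22095520 of tRNA-Asp-GTC-1-11 (0.360 points).

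Coverage was compared as well, since it follows how many reads of each tRNA were sequenced and placed. In bulk tissue, fewer cells of a type and less RNA per cell cannot be told apart. edgeR's quasi-likelihood test called 0 of the 12 valine sites and 0% of all 192 sites, with 0 valine sites and 6.77% of all sites at an unadjusted p under 0.05. DESeq2 also called 0 sites. The log2 fold change of coverage, knockout over WT, ran from -0.65 to 0.03 over valine sites with a median of -0.19, against 0.04 over all sites. It was negative at 9 of 12, but these sites lie in 6 genes. Reads can span several sites of a gene, so the sites are not independent.

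The most negative changes were in tRNA-Val-TAC-1-2 and tRNA-Val-AAC-2-1, genes singled out after their values were seen. The upstream site of tRNA-Val-TAC-1-2 had 5.46, 4.96 and 5.22 CPM (TMM-normalised over the listed sites) in knockout libraries, against 13.0, 5.60 and 3.13 in WT libraries. WT replicate 1 alone stood far above the rest, and the log2 fold change of -0.50 ± 0.42 (SE) became 0.24 without it. The first site of tRNA-Val-AAC-2-1 had 3.70, 3.67 and 1.90 CPM in knockout libraries, against 4.50, 5.02 and 4.02 in WT libraries, so all knockout libraries stood below all WT libraries. That held at 1 of 12 valine sites (8.33%), against 14.1% of all 192 sites. Its log2 fold change of -0.53 ± 0.33 (SE), with an edgeR adjusted p of 0.743, became -0.29 without knockout replicate 3. The second site had 6.82, 7.12 and 3.80 CPM in knockout libraries, against 6.57, 9.08 and 7.14 in WT libraries. Its log2 fold change was -0.35 ± 0.29 (SE), with an edgeR adjusted p of 0.767, and the genotypes overlapped. Without knockout replicate 3 it was -0.12. The third AAC-2-1 site had a log2 fold change of -0.45 ± 0.30 (SE, edgeR adjusted p = 0.754). The downstream TAC-1-2 site had the most negative, -0.65 ± 0.42 (SE, edgeR adjusted p = 0.743).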

How the data were processed

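Per the labels' protocols, RNA was extracted with TRIzol, small RNA was separated on columns, treated with an ultrafast bisulfite buffer and made into libraries with a small RNA kit. The submitters' processing notes name GRCm39 and the tools HISAT2, Bowtie2, cutadapt, Trimmomatic and SAMtools. The sources used here do not give their roles and versions, nor how sites were chosen. Per the file headers, the table gives coverage and C reads as counts without normalization, and the m5C level as a fraction. The deposited fraction equals C count over coverage to within 0.005, and levels were recomputed from the counts as percentages. No per-sample column was unmapped (0).

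Sites were tested on counts by a quasi-binomial logistic model, two-sided, with libraries of at least 10 reads, at least 2 per genotype, own dispersion, Benjamini-Hochberg adjustment over all sites and a threshold of 0.05. Position steps used limma 3.58.1 on differences within a library, and coverage used edgeR 4.0.16 with TMM and filterByExpr, with DESeq2 1.42.0 as an alternative (R 4.3.3). The procedures were run on simulated data with known changes, where a minimum share of recovered changes was set for limma, edgeR and the moderated model. Recovery was also computed for the main quasi-binomial test, but it was held to no minimum and is not given here. No power to find a loss is claimed for that test. Depth limits precision, and intervals are exact binomial (Clopper-Pearson) at 95%. All valine rows are named. The members and lists were chosen with earlier results of these data known. The comparison of gene copies and the choice of spacing were made after the values were seen. Alternatives were coverage minimum, test, scale, filter, replicate block and leaving out each library. The mRNA and large RNA tables hold no valine tRNA row and were not used.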

Additional observations from a re-analysis of the deposited data

How the results depend on the processing

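The 0 calls between genotypes over all small RNA sites held under coverage minimums of 1, 20 and 50 reads, limma, moderated dispersions, the replicate block and without each library. Fisher's exact test on pooled reads, which ignores the spread between libraries, called 24 sites, among them the upstream TAC-1-3 site at -0.38 points (adjusted p = 0.0482, where the alternatives ranged up to 0.993). It turned the downstream TAC-1-3 difference to -0.0308. Without 1 library, differences crossed 0 at that downstream site (-0.142 to 0.0739), at the upstream CAC-2-1 site (-1.01 to 1.54) and at the downstream TAC-1-2 site (-11.9 to 8.52), none of which passed. The step between the neighbouring AAC-2-1 bases ranged from -3.85 to 1.95, and the genotype change of the step from -7.99 to 10.3 in CAC-2-3 and from -5.89 to 13.6 in TAC-1-2. The AAC minus CAC mean of 9.12 points became 14.4 with pooled reads, and it could not be computed over sites of 100 reads, which AAC lacks. The valine minus other tRNA mean of -7.88 became -14.0 with medians and 0.0815 with pooled reads. The valine mean difference of 2.74 became -1.14 over the 4 deep sites. The cause of these shifts was not tested. At a minimum of 50 reads the AAC-2-1, CAC-2-3 and TAC-1-2 steps could not be fitted. The position calls over all pairs (49) ranged from 40 to 47 without 1 library.

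Same-numbered libraries' deviations, standardised per site, correlated at 0.0653, 0.0976 and 0.0357 for m5C, and on these low values the numbers were not taken to pair them. For coverage the correlations were 0.201, 0.0954 and 0.112. All of these values lay above the highest between differently numbered libraries, so the choice not to pair is open to doubt, above all for coverage. Weighted by depth, a version computed first, the m5C values were 0.258, 0.640 and 0.498, which would count as paired; it was set aside, before blocked results were seen, because a few very deep sites dominate it. Each of the 6 libraries correlated best with its own number in the standardised check, a hint from the data and not the design. The highest correlation between differently numbered libraries in that check was 0.0310 for m5C and 0.0725 for coverage. With the replicate block the valine step calls at the first AAC-2-1 pair (13.0 points, adjusted p = 0.0508) and TAC-1-2 (-19.9 points, 0.0686) did not pass limma. Coverage calls by edgeR went to 6 with the replicate block and ranged from 0 to 2 without 1 library, 2 being without WT replicate 3. The TAC-1-2 coverage change ranged from -0.84 to 0.24 upstream and from -0.97 to 0.0620 downstream without 1 library.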
